A study of Capra hircus with 12 samples.

Results

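The proteasome subunit genes were followed in RNA-seq data from goat temporomandibular joint (TMJ) cells. They were taken from the count tables as the genes whose symbol is PSMA, PSMB, PSMC, PSMD or PSME followed by digits, which gave 43 of the 28910 rows. They fall into the 20S core with 8 α-ring genes (PSMA1 to PSMA8) and 7 constitutive β-ring genes (PSMB1 to PSMB7), 3 immunoproteasome genes (PSMB8, PSMB9, PSMB10), the thymoproteasome gene PSMB11, 6 ATPases (PSMC1 to PSMC6) and 11 non-ATPase subunits of the 19S cap, 3 chaperones that help to build the cap (PSMD5, PSMD9, PSMD10), 3 genes of the PA28 activator (PSME1, PSME2, PSME3) and PSME4, which encodes the PA200 activator. Each of these 43 symbols was a protein-coding gene of the RefSeq annotation of the goat genome (ARS1.2).

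The proteasome is the protease that degrades proteins tagged with ubiquitin. Its barrel, the 20S core, has rings of α subunits around rings of β subunits, and the protease sites sit in PSMB5, PSMB6 and PSMB7. The 19S cap recognises ubiquitin chains, removes them and unfolds the substrate with its ring of ATPases. Interferons and inflammatory cytokines can induce PSMB8, PSMB9 and PSMB10, which replace PSMB5, PSMB6 and PSMB7 in newly built cores, together with PSME1 and PSME2, whose products open the barrel without ubiquitin recognition. The proteasome is also the machine that destroys the inhibitor IκB after IL-1β stimulation and thereby releases NF-κB.

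Cells came from the condylar fibrocartilage of female goats aged 6 to 9 months, obtained from abattoirs, and were used at passages 3 to 5 as cells of the superficial layer (SLC) or of the middle cartilage layer (MLC). There were 3 IL-1β libraries and 3 IL-1β+LOXL2 libraries of each layer, so that all 12 came from cells given 10 ng IL-1β for 1 h, and cells of the combined groups had been transduced overnight with an adenovirus carrying LOXL2, a lysyl oxidase-like enzyme. The study's methods do not state that the cells given IL-1β alone for RNA-seq received an empty virus, so LOXL2 and the virus cannot be told apart. Nothing in the labels says that the libraries of a group came from separate cultures or animals, so p-values measure the spread between libraries, which may be technical. Untreated cells were not analysed here.

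Libraries held between 14158607 and 28931652 counts, of which between 0.316% and 0.465% fell on the 43 genes. Reads on the LOXL2 gene itself did not rise with the label. Its normalised read count in SLC was 11583, 11647 and 11894 with IL-1β and 8541, 10124 and 10387 where the label gives IL-1β+LOXL2 (log2 fold change -0.27, adjusted p = 0.106). In MLC it was 14291, 16294 and 15189 against 15250, 14740 and 13808 (log2 fold change -0.07, adjusted p = 0.595). The species of the transgene and whether its reads could be counted on the goat gene are not stated, so the count goes against the label without deciding what the cells received. The layer labels were checked with 8 chondrocyte markers, whose summed level was 137 to 151 CPM (counts scaled to equal library totals) in SLC and 603 to 716 CPM in MLC. COL2A1 was at 0 in 5 of 6 SLC libraries. The 6 markers of the superficial layer and of fibroblasts did not mark SLC in turn, since 3 of them were called higher and 1 lower in MLC under IL-1β. PRG4, the lubricin gene of the superficial layer, was at 3.95 to 4.97 CPM in SLC and 5.15 to 7.28 CPM in MLC under IL-1β (log2 fold change 0.44, adjusted p = 0.0466), and the 6 markers summed to 52100 to 53840 CPM in SLC and 55550 to 57050 CPM in MLC. In bulk samples, fewer cells of a type and less RNA per cell cannot be told apart.

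Of the 43 genes, 42 passed the filter on low counts in every comparison. PSMB11, a subunit known from the thymus cortex, had at most 1.9 normalised counts in any library and was not tested. Normalised read counts below are raw counts scaled by DESeq2's median of ratios over the 12 libraries, given in the order of replicates 1, 2 and 3. Log2 fold changes, their standard errors (SE) and adjusted p-values are from edgeR's quasi-likelihood test over all genes with Benjamini-Hochberg adjustment, at a threshold of 0.05. The two-sided exact permutation test of a single gene cannot go below p = 0.1 with 3 libraries against 3.

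The first question was how the proteasome genes differed between IL-1β and IL-1β+LOXL2 in MLC. Of the 42 genes tested, 18 were higher and 1 was lower past the threshold, against 9.81% of all tested genes that were called higher and 11.8% that were called lower. The genes that rose were 9 of the 15 genes of the 20S core, 4 of the 6 ATPases, 2 of the 11 non-ATPase subunits (PSMD4 and PSMD7), PSME1, PSME2 and PSMB10. PSME4 was the gene that fell. The median log2 fold change of the 42 genes was 0.32, against 0.0079 over all genes tested.

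Among the catalytic β subunits of MLC, PSMB6, which carries the caspase-like site, had normalised read counts of 1481.3, 1470.5 and 1343.5 with IL-1β and 1680.4, 1918.5 and 2329.3 in the libraries labelled IL-1β+LOXL2 (log2 fold change 0.46, SE 0.12, adjusted p = 0.0250). PSMB7, which carries the trypsin-like site, had 1375, 1364.6 and 1261.8 against 1628.3, 1782.1 and 1966.3 (0.42, SE 0.10, adjusted p = 0.0213). PSMB5, which carries the chymotrypsin-like site, had 2054.7, 1762.7 and 1876.7 against 2188.1, 2306.5 and 2624.7 (0.32, SE 0.10, adjusted p = 0.0433). In all 3 genes every library labelled IL-1β+LOXL2 lay above every IL-1β library, and replicate 3 was the highest. PSMB3, a β subunit without a protease site, had 1015.5, 1050.6 and 1102.2 against 1181.4, 1426 and 1781.8 and the largest value of the 20S core (0.47, SE 0.13, adjusted p = 0.0321). The other core genes that rose were PSMB4, PSMA2, PSMA3, PSMA5 and PSMA7. All 15 core genes had a positive value, from 0.17 in PSMA1 to the value of PSMB3, with a median of 0.33.

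The ATPases of the cap split into 4 genes that rose and 2 that did not pass the test. PSMC3 had the second largest change of all 42 genes, with 2931.1, 3015.3 and 2924.5 normalised counts with IL-1β and 3490.1, 4366.6 and 5029.7 in the libraries labelled IL-1β+LOXL2 (log2 fold change 0.54, SE 0.12, adjusted p = 0.0204). PSMC5, PSMC1 and PSMC4 followed at 0.43, 0.41 and 0.37. PSMC2 (0.18, adjusted p = 0.162) and PSMC6 (0.13, adjusted p = 0.331) did not pass.

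The non-ATPase subunits were spread more widely. PSMD4, a ubiquitin receptor of the cap, had 2318.4, 2473.6 and 2301 normalised counts against 2557.7, 3356.4 and 3682.5 (0.43, SE 0.12, adjusted p = 0.0314). PSMD7, the partner of the deubiquitinase PSMD14, also rose (0.35, SE 0.10, adjusted p = 0.0340), whereas PSMD14 itself was at 0.06 (adjusted p = 0.693). PSMD2, a large scaffold subunit of the cap base, had 5284.9, 4898.5 and 5111.6 against 5221.6, 4950.5 and 5233.4 (0.0079, SE 0.08), and the groups overlapped. PSMD12, a subunit of the cap lid, was among the 3 lowest, with 984, 959.3 and 946.4 against 924.6, 828.8 and 862.1. Every library labelled IL-1β+LOXL2 lay below the IL-1β libraries, but the change did not pass the test (-0.15, SE 0.09, adjusted p = 0.255). The cap chaperone PSMD5 (-0.04, adjusted p = 0.766) was the other gene in this range. The median over the 11 non-ATPase subunits was 0.07, against 0.39 over the 6 ATPases, and this difference was not tested.

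Among the activators in MLC, PSME1 had 3037.4, 3079.8 and 2983.8 normalised counts with IL-1β and 3345.3, 4071.4 and 4358.1 in the libraries labelled IL-1β+LOXL2 (log2 fold change 0.37, SE 0.10, adjusted p = 0.0310). Its partner PSME2 had 745.2, 777.9 and 775.7 against 842.6, 1040.7 and 1101.1 (0.37, SE 0.11, adjusted p = 0.0381). Both rose by nearly the same value, with no overlap. PSME3, which forms a PA28 ring in the nucleus, had 2000.9, 1776.1 and 1872.9 against 1955.5, 2036.4 and 1927 (0.06, SE 0.09, adjusted p = 0.621). PSME4 had 1800.1, 1493.7 and 1917.5 against 1515.3, 1149.3 and 1209, a fall of 0.43 on the log2 scale (-0.43, SE 0.12, adjusted p = 0.0332). The highest PSME4 count with LOXL2 lay just above the lowest count with IL-1β alone.

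Of the immunoproteasome genes in MLC, PSMB10 rose most of all 42 genes, from 489.4, 500.3 and 400.8 normalised counts to 536.6, 716.3 and 793.6 (log2 fold change 0.55, SE 0.15, adjusted p = 0.0270). PSMB8 had 262.4, 331.1 and 243.7 against 344.6, 377.3 and 380.1 and missed the threshold (0.39, SE 0.14, adjusted p = 0.0546). PSMB9, with under 90 counts in each MLC library, had 72.2, 60.9 and 34.6 against 59.8, 66.2 and 84.7 (0.33, SE 0.27, adjusted p = 0.374). The PSMB10 and PSMB8 groups did not overlap and the PSMB9 groups did. Over all 42 genes, the groups did not overlap in 27 genes that were higher and in 1 gene, PSMD12, that was lower, against 21.5% and 19.9% of all genes tested.

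**Figure D1:**
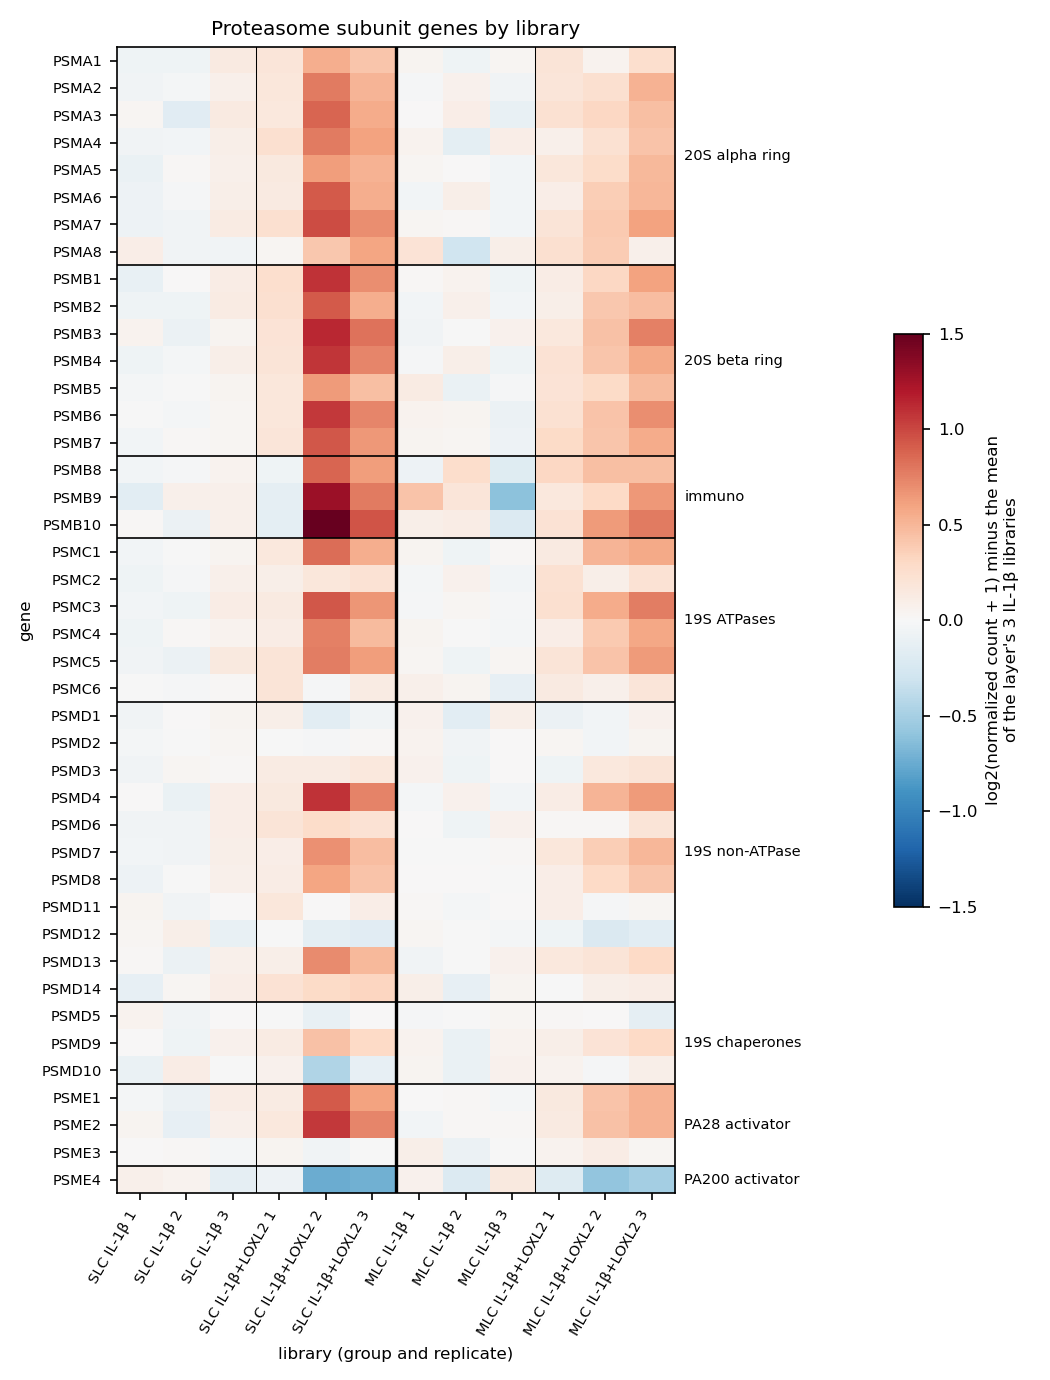
Normalised read counts of the 42 tested proteasome genes in the 12 libraries, each shown as the log2 ratio to the mean of the 3 IL-1β libraries of the same layer, with genes in rows grouped by subunit class and libraries in columns, red above and blue below that mean. In the libraries labelled IL-1β+LOXL2, replicate 1 was the palest of each layer for most genes. PSME4, and less strongly PSMD12, ran against most other genes in both layers.

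The MLC calls depended on single libraries. Leaving out IL-1β replicate 1, IL-1β replicate 3, IL-1β+LOXL2 replicate 2 or IL-1β+LOXL2 replicate 3 left 0 proteasome genes called. Over all genes, 0% were called in the first 3 of these settings, and 0.607% higher and 2.82% lower in the last. Leaving out IL-1β replicate 2 left 1 proteasome gene higher and 1 lower, against 1.53% and 4.41% of all genes. Without IL-1β+LOXL2 replicate 1, 27 were called higher and 1 lower, against 23.7% and 24.4% of all genes. A fit on all 12 libraries, in which the MLC libraries share the spread of the SLC libraries, called 0 proteasome genes and 0% of all genes in MLC.

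In SLC, the same comparison gave larger values and no call. Of 14103 genes tested, 0% were called in either direction, so 0 proteasome genes were called, and the smallest adjusted p among them was 0.0706. At an unadjusted p under 0.05, 29 proteasome genes were higher and 1 was lower, against 23.1% and 20.2% of all genes. DESeq2's Wald test called 25 higher and 0 lower, against 16.0% and 14.0% of all genes. The groups did not overlap in 29 genes that were higher and in 0 that were lower, against 23.8% and 25.2% of all genes. The median log2 fold change was 0.46, against 0.013 over all genes tested.

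The largest SLC value was that of PSMB10, with 485.6, 448.7 and 502.4 normalised counts with IL-1β and 432.3, 1348.4 and 918.3 in the libraries labelled IL-1β+LOXL2 (log2 fold change 0.91, SE 0.36, adjusted p = 0.0960). PSMB9 had 48.7, 57.7 and 57.5 against 49.4, 133.9 and 94.5 (0.77, SE 0.34, adjusted p = 0.127). PSMB8 had 452.5, 457.9 and 482 against 442.5, 851.4 and 719.1 (0.54, SE 0.22, adjusted p = 0.109). In all 3 immunoproteasome genes the first library labelled IL-1β+LOXL2 lay within or below the range with IL-1β alone, while the other two lay well above it. Without that library, PSMB8 was at 0.76 (adjusted p = 0.00011), PSMB9 at 1.07 (adjusted p = 0.00101) and PSMB10 at 1.24 (adjusted p = 4.72e-05).

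The constitutive genes of SLC differed from this in that the first library also lay above the controls. PSMB3 had 868, 792.1 and 860.3 normalised counts against 967.5, 1846.2 and 1481.3 (0.77, SE 0.22, adjusted p = 0.0706). PSMB6 had 1469.4, 1447.2 and 1498 against 1661.8, 3073.8 and 2446 (0.70, SE 0.21, adjusted p = 0.0706). PSMB7 had 1168.7, 1220.8 and 1229.2 against 1368.3, 2304.2 and 1888.1 (0.62, SE 0.18, adjusted p = 0.0706). PSMB5 was lower in value than these, with 1628.9, 1657 and 1704.8 against 1866, 2600.1 and 2281.4 (0.44, SE 0.13, adjusted p = 0.0711). All 15 core genes had a positive value, with a median of 0.57, and 14 of them did not overlap. PSMA8, an α subunit known from the testis, was the exception, with 41.7 to 46.7 counts against 44.2 to 65.8.

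Across all 42 genes of SLC, IL-1β+LOXL2 replicate 1 was the lowest and replicate 2 the highest of the 3 libraries in 29 genes. Replicate 1 lay above the range of the IL-1β libraries in 33 genes, within it in 7 and below it in 2. These positions were not counted over all genes, so they cannot be called particular to the proteasome genes. Without replicate 1, 30 proteasome genes were called higher and 1 lower, against 31.0% and 30.8% of all genes. The fit on all 12 libraries called 29 higher and 1 lower in SLC, against 22.5% and 18.5% of all genes.

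In the activators of SLC, as in MLC, PSME2 and PSME1 had the highest values and PSME4 the lowest. PSME1 had 3147, 3026.5 and 3483.7 normalised counts against 3488.7, 6065.9 and 4886.1 (log2 fold change 0.58, SE 0.19, adjusted p = 0.0764). PSME2 had 889.4, 794.6 and 913.1 against 964.1, 1800.9 and 1438.2 (0.70, SE 0.21, adjusted p = 0.0715). PSME3 stayed between 1659.5 and 1760.5 in all 6 libraries (-0.0011, SE 0.09, adjusted p = 0.994), and the sign of this value turned under other settings. PSME4 had 1966.6, 1946.9 and 1710.3 against 1773.3, 1112.9 and 1136.9 (-0.48, SE 0.20, adjusted p = 0.105), the lowest value of the 42 genes in SLC as in MLC. The cap chaperone PSMD10 (-0.15, adjusted p = 0.459) and PSMD12 (-0.10, adjusted p = 0.464) were next. None of the 3 passed the test.

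**Figure D2:**
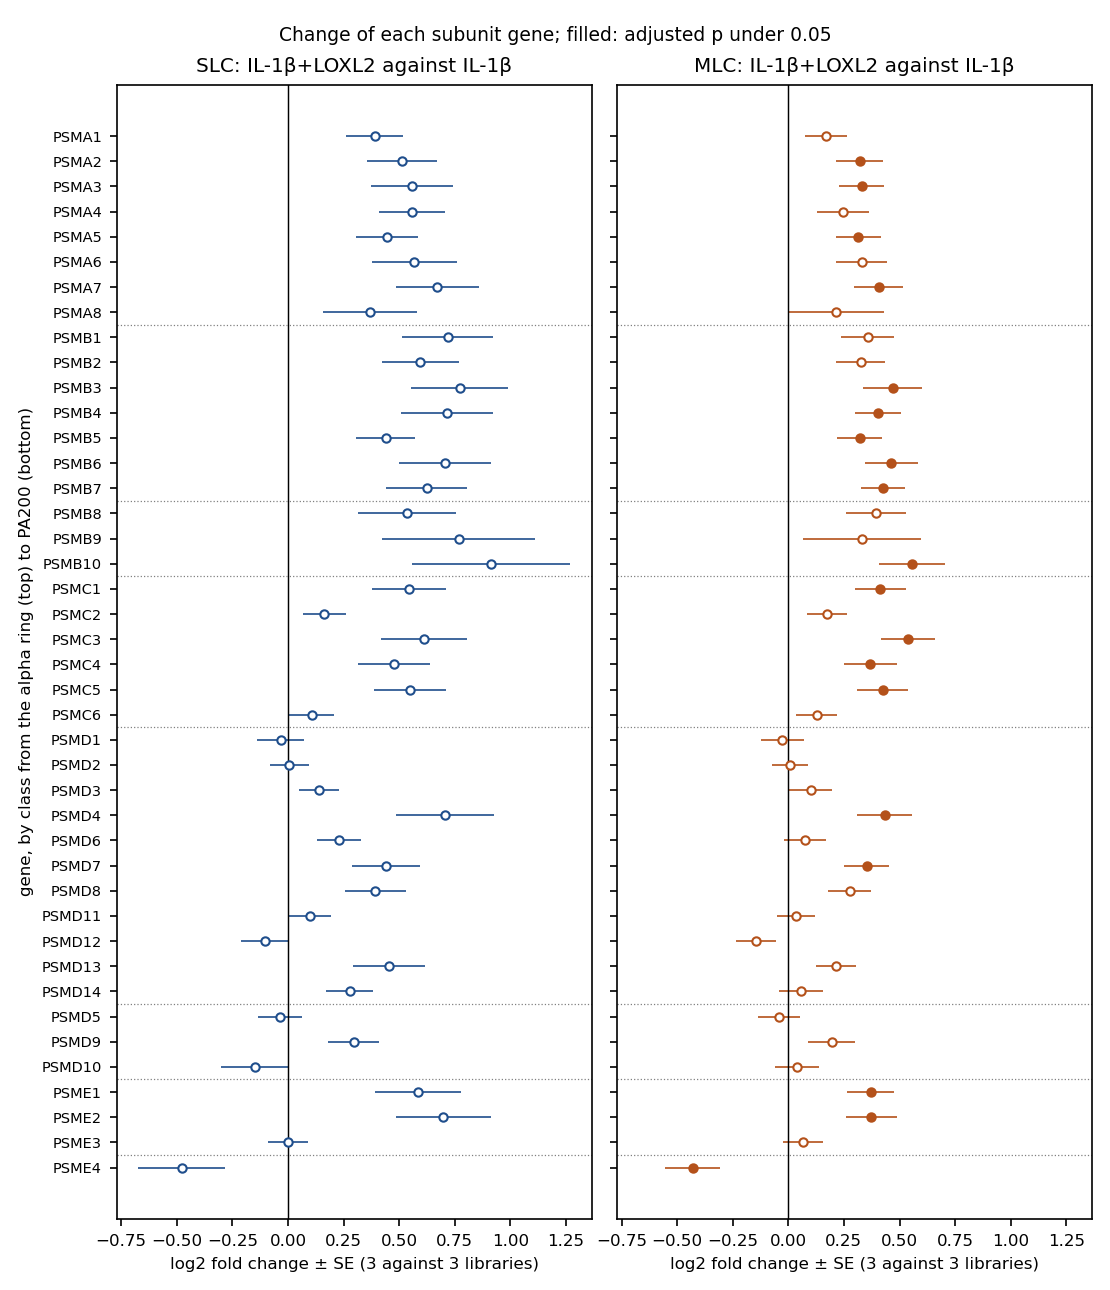
Log2 fold change of IL-1β+LOXL2 over IL-1β for each tested proteasome gene, with SLC and MLC side by side, grouped by subunit class; points are edgeR estimates and bars are standard errors, with filled points at an adjusted p under 0.05. All 15 core genes lay above 0 in both layers, PSME3 lay near 0 and PSME4 lay below 0 in both.

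The difference of the 2 responses was fitted as an interaction term over the 12 libraries. It called 0 of 14534 genes (0%), and 0 proteasome genes had an unadjusted p under 0.05, against 2.26% of all genes. DESeq2 also called 0% of all genes. The interaction value (MLC minus SLC) was negative in 38 of the 42 genes, with a median of -0.16 and a smallest adjusted p of 0.959. Over all genes it was negative in 7782 of 14534, with a median of -0.022. Among the proteasome genes, the most negative were PSMB9 (-0.45, SE 0.48), PSMB1 (-0.38, SE 0.26) and PSMB10 (-0.38, SE 0.43). The most positive were PSMD10 (0.18, SE 0.17), PSME3 (0.05, SE 0.11) and PSME4 (0.04, SE 0.25). Each of these values lay within 2 standard errors of 0, so a difference of response between layers was not detectable with these libraries.

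Summed over a class, the 15 core genes took 1053.6 ± 57.6 CPM (SD, n = 3) in SLC with IL-1β and 1544.3 ± 300 CPM (SD, n = 3) where the label adds LOXL2. In MLC they took 1179.2 ± 24.4 CPM and 1489 ± 175 CPM (SD, n = 3 each). The SD in the combined groups was several times that of the IL-1β groups. Relative to the core, the ATPases kept a near-constant sum in MLC (50.9% ± 0.772 and 51.8% ± 1.07, SD, n = 3 each) and were lower in SLC with LOXL2 (45.6% ± 3.09) than with IL-1β alone (50.1% ± 0.185). The non-ATPase subunits went from 102% ± 2.1 to 82.1% ± 12.5 of the core in SLC and from 106.5% ± 4.17 to 92.2% ± 5.29 in MLC. In both layers their ranges did not overlap between treatments. PSME1 and PSME2 together held 21.1% of the core in SLC under both treatments, and 17.3% and 17.5% in MLC. These are percentages of counts and follow transcript length, so they compare libraries and not genes.

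Shorter genes were higher and longer genes lower across the whole table where the label adds LOXL2. An index was taken as the median log2 deviation of 4561 genes with a genomic span under 10 kb minus that of 2018 genes over 100 kb. It ranged from -0.49 to -0.30 in SLC with IL-1β and was -0.13, 0.79 and 0.48 in the 3 SLC libraries labelled IL-1β+LOXL2. For MLC it ranged from -0.27 to -0.18 with IL-1β and was -0.01, 0.34 and 0.49 with LOXL2. In each combined group the libraries stood in the same order by this index as by the summed 20S core, which was 1229.8, 1826.4 and 1576.6 CPM in SLC and 1320.9, 1475.4 and 1670.8 CPM in MLC.

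The proteasome genes had a median span of 11521 bases, introns included, against 20774 over the genes tested in SLC. Across the 42 genes, Spearman's rho between span and response was -0.485 for SLC and -0.584 for MLC, close to -0.493 and -0.488 over all genes. These correlations are across genes, which are not independent, and describe the libraries only. PSME4 spans 96408 bases, far more than PSMB6 (2240), PSMB10 (2583) or PSME1 (2797). Other long genes did not share its fall in SLC. There PSMD14, at 103152 bases, was at 0.28 (adjusted p = 0.0912) and PSMD1, at 83669 bases, at -0.03 (adjusted p = 0.817). PSMB7, at 56555 bases, was among the genes that rose in MLC.

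When each library's trend of expression on span was removed, 7 proteasome genes were called higher in MLC, against 7.79% of all genes, and 0 lower, against 6.87%. These were PSMB7 (log2 fold change 0.62), PSMB2 (0.41), PSMC3 (0.36), PSMB1 (0.36), PSMA3 (0.35), PSMC1 (0.33) and PSMA5 (0.31). The median was 0.20 in MLC and 0.32 in SLC, where 0 genes were called. PSMB1 and PSMB2 had not been called in MLC before the trend was removed (adjusted p = 0.0502 and 0.0529). PSMB10 (0.34, adjusted p = 0.0653) and PSME4 (-0.18, adjusted p = 0.217) then missed the threshold in MLC. So did PSMB3, PSMB4, PSMB5, PSMB6, PSMA2, PSMA7, PSMC4, PSMC5, PSMD4, PSMD7, PSME1 and PSME2, which had all been called before. The 15 core genes remained positive in both layers.

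**Figure D3:**
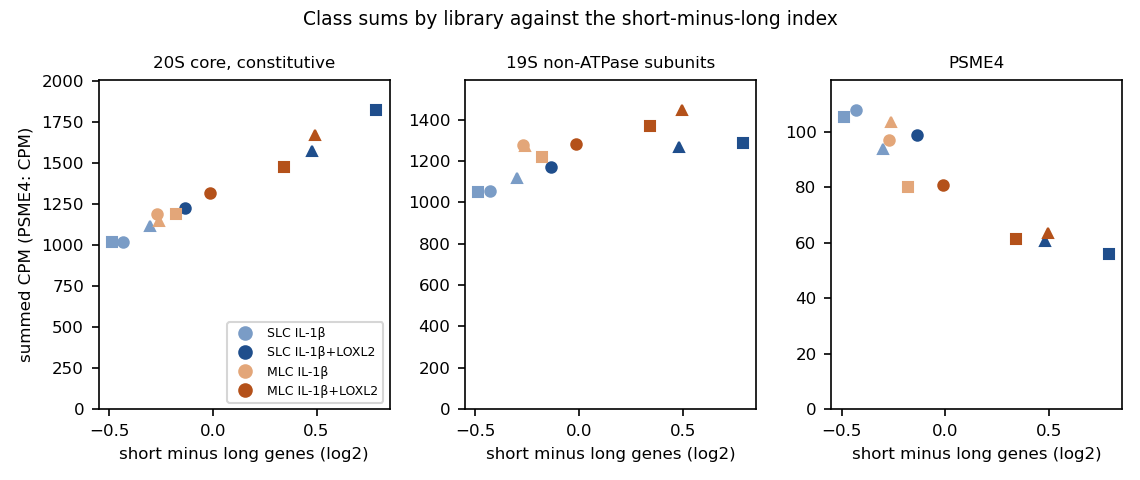
Summed CPM of subunit classes in each library (vertical axis, from 0) against the short-gene minus long-gene index of the library in log2 units (horizontal axis), with 1 point per library. The libraries labelled IL-1β+LOXL2 with the highest index, such as SLC replicate 2 at 0.79 and MLC replicate 3 at 0.49, also had the highest 20S core sums of their layer.

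The genes outside the proteasome whose log2 CPM followed the summed 20S core most closely over the 12 libraries were MRPL12, WDR83OS, PPIB, EMG1 and DYNLRB1, with Pearson's r from 0.993 to 0.995. The points share library depth, normalisation and the trend with span, and r is a description only.

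The layers were then compared under IL-1β alone. Here 24 proteasome genes were higher in MLC than in SLC and 1 was lower, against 24.2% of all genes called higher and 22.7% called lower. The higher genes were 10 of the 15 core genes, 13 of the 17 genes of the 19S cap and the chaperone PSMD5. The lower gene was PSMB8. The differences were small, with a median of 0.21 on the log2 scale against -0.0069 over all genes, and PSMB8 was the 1 call that stood beyond 0.5 in absolute value. On a fit to all 12 libraries, 8 were called higher and 1 lower, against 14.2% and 11.4% of all genes.

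The genes highest in MLC were PSMD3, PSMD5 and PSMA8. PSMD3, a lid subunit, had 1932.5, 2048.9 and 2030.1 normalised counts in SLC and 2704.1, 2483.3 and 2597.9 in MLC (log2 fold change 0.39, SE 0.06, adjusted p = 8.90e-05). PSMD5 had 696.7, 651.8 and 673.9 against 862, 868 and 887 (0.39, SE 0.07, adjusted p = 0.000218). Neither gene's groups overlapped. PSMA8, at 41.7 to 64.3 counts, had the same value with a wide error (0.39, SE 0.21, adjusted p = 0.142).

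PSMB8 was the lowest. Its normalised read count was 452.5, 457.9 and 482 in SLC with IL-1β and 262.4, 331.1 and 243.7 in MLC with IL-1β, which is 0.610-fold (log2 fold change -0.71, SE 0.11, adjusted p = 7.51e-05). Each SLC library lay above each MLC library. The call held when any 1 of the 6 libraries was left out, with values from -0.86 to -0.62, and after removal of the span trend (-0.79). The other immunoproteasome genes did not differ past the threshold, with PSMB9 at 0.05 (SE 0.24, adjusted p = 0.894) and PSMB10 at -0.03 (SE 0.09, adjusted p = 0.834). The constitutive counterpart PSMB5 went the other way (0.21, SE 0.07, adjusted p = 0.0182), PSMB7 was at 0.16 (adjusted p = 0.0441) and PSMB6 at -0.02 (adjusted p = 0.815). PSMB7 missed the threshold with DESeq2, without a filter on low counts, and when any library but MLC IL-1β replicate 3 was left out.

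PSME2 was among the 3 lowest, with 889.4, 794.6 and 913.1 normalised counts in SLC and 745.2, 777.9 and 775.7 in MLC, and did not pass the test (-0.16, SE 0.07, adjusted p = 0.0955). PSMD9 (-0.15, SE 0.07, adjusted p = 0.124), a cap chaperone, did not pass either. PSME1 (-0.07, adjusted p = 0.428), PSME3 (0.15, adjusted p = 0.0546) and PSME4 (-0.09, adjusted p = 0.414) did not differ past the threshold.

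In the libraries labelled IL-1β+LOXL2, PSMB8 was again lower in MLC, with 344.6, 377.3 and 380.1 normalised counts against 442.5, 851.4 and 719.1 in SLC, which is 0.553-fold (log2 fold change -0.86, SE 0.23, adjusted p = 0.0408). It was the 1 proteasome gene called lower, against 6.83% of all genes, and 0 were called higher, against 9.27%. At an unadjusted p under 0.05, 4 were higher, against 15.4%, and DESeq2 called 1 higher and 1 lower, against 11.3% and 9.16%. The PSMB8 call was lost when any library but SLC IL-1β+LOXL2 replicate 1 was left out (adjusted p = 0.0838 to 0.151). Without that replicate, the value was -1.08 (adjusted p = 0.000369), and 3 proteasome genes were called higher and 5 lower, against 16.8% and 16.1% of all genes. After PSMB8, the lowest values were those of PSME2 (-0.48, SE 0.23, adjusted p = 0.207) and PSMB9 (-0.39, SE 0.35, adjusted p = 0.524). The highest were PSMD5 (0.38, SE 0.11, adjusted p = 0.0620), PSMD3 (0.35, SE 0.12, adjusted p = 0.0884) and PSMD1 (0.31, SE 0.12, adjusted p = 0.134), none past the threshold.

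**Figure D4:**
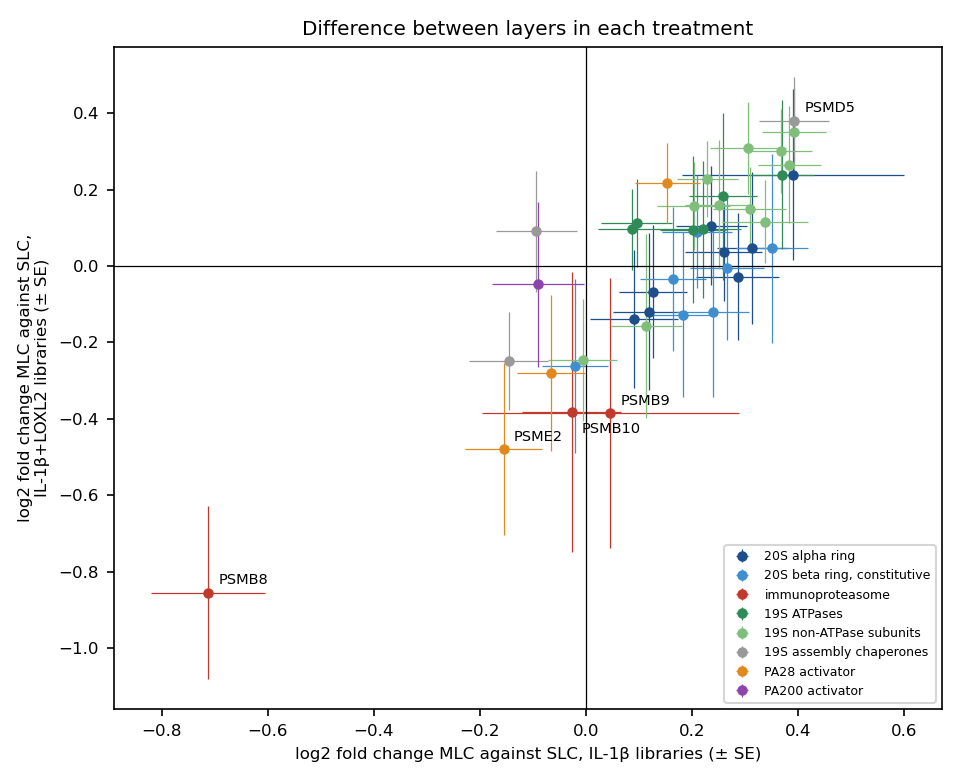
Log2 difference MLC minus SLC of each tested proteasome gene under IL-1β (horizontal axis) and in the libraries labelled IL-1β+LOXL2 (vertical axis), with standard errors and colours by subunit class. PSMB8 stood apart at the lower left, at -0.71 and -0.86, whereas most other genes lay between 0 and 0.4 under IL-1β.

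The balance between each immunoproteasome gene and the constitutive gene it replaces was followed as a percentage of counts. PSMB8 was 27.9% ± 0.337 of PSMB5 in SLC with IL-1β and 29.3% ± 4.9 where the label adds LOXL2 (SD, n = 3 each). In MLC it was 14.9% ± 3.41 and 15.5% ± 0.957 (SD, n = 3 each). The 6 SLC libraries ranged from 23.7% to 32.7% and the 6 MLC libraries from 12.8% to 18.8%, with no overlap between layers, while the treatments overlapped within each layer.

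PSMB9 was 3.71% ± 0.354 of PSMB6 in SLC with IL-1β, 3.73% ± 0.703 in SLC with LOXL2, 3.86% ± 1.17 in MLC with IL-1β and 3.55% ± 0.0934 in MLC with LOXL2 (SD, n = 3 each). These ranges overlapped between all groups. PSMB10 was 39.7% ± 2.6 of PSMB7 and 46.3% ± 13.6 with LOXL2 in SLC, where single libraries ran from 31.6% to 58.5%. In MLC it was 34.7% ± 2.58 and 37.8% ± 4.23. The rise of PSMB10 in MLC was thus accompanied by a rise of PSMB7, and their ratios overlapped between treatments. PSME2 relative to PSME3 was 50.5% ± 4.46 in SLC and 82.5% ± 26.9 with LOXL2, and 40.8% ± 3.32 and 50.5% ± 7.05 in MLC (SD, n = 3 each). No test was made of these ratios.

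**Figure D5:**
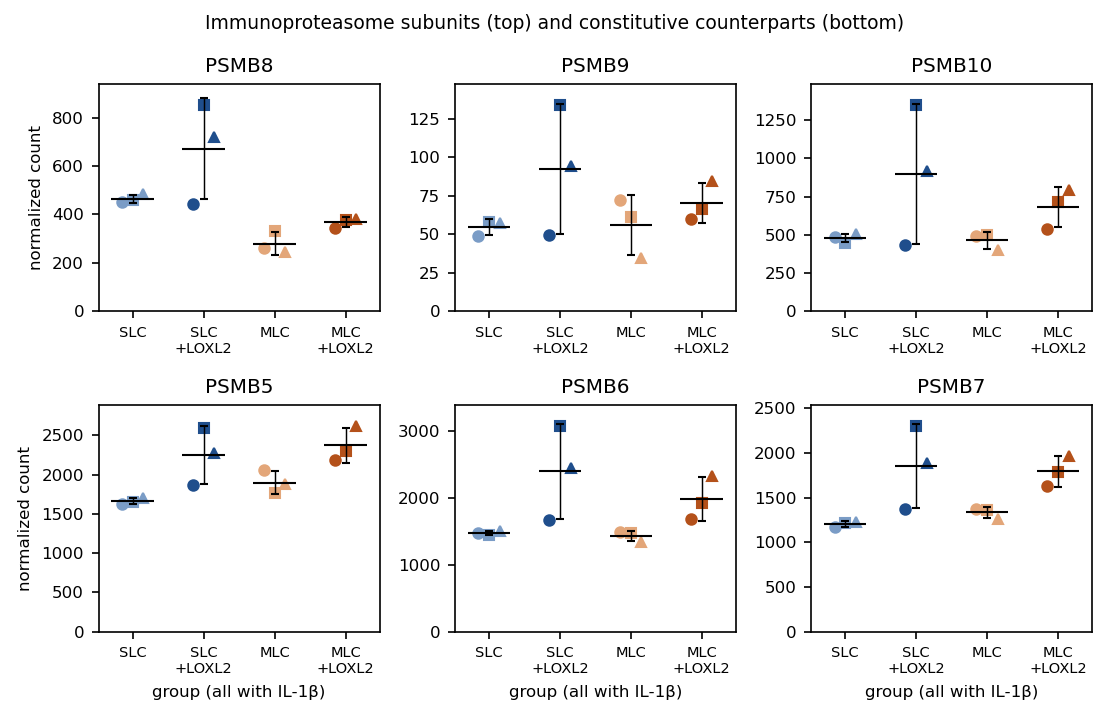
Normalised read counts (vertical axes, from 0) of PSMB8, PSMB9 and PSMB10 and of PSMB5, PSMB6 and PSMB7 in the 4 groups, with 1 point per library, shaped by replicate number, a horizontal line at the mean of 3 and error bars of 1 SD. PSMB8 was lower in MLC, at 243.7 to 380.1 counts, than in SLC, at 442.5 to 851.4 counts, while PSMB5 was not.

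PSMB8 (chromosome 23, 41506453 to 41510451, ARS1.2) and PSMB9 (41490123 to 41496734) lie beside TAP1 (41496924 to 41505887) and TAP2 (41514225 to 41522937), which encode the peptide transporter of class I antigen presentation. The layer difference under IL-1β was -0.13 for TAP1 (adjusted p = 0.214) and -0.14 for TAP2 (adjusted p = 0.165), so that PSMB8 was the 1 gene of these 4 past the threshold. PSMB10 lies on chromosome 18 (36682569 to 36685151) and PSMB5 on chromosome 10 (79598325 to 79603890). PSME1 (chromosome 10, 80418160 to 80420956) shares 4 bases at its end with EMC9, and since the strand setting of the counting is not stated, reads there cannot be assigned with certainty. EMC9 also rose in MLC with LOXL2 (0.45, adjusted p = 0.0488). PSME2 (80425928 to 80429833) lies in the same cluster before RNF31 and IRF9. PSMA8, PSMC1, PSMD1, PSMD5, PSMD9 and PSME3 also overlap another annotated gene.

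Immune cells carry much immunoproteasome, so their markers were read beside PSMB8. PTPRC was at 0 in 10 of 12 libraries and at most 0.103 CPM, and MS4A1 was at 0 in all 12. The 6 immune markers summed to 58.2 to 97.9 CPM in SLC and 82.5 to 141 CPM in MLC, most of it CD14. Of 4 tested, 1 was called, higher in MLC under IL-1β, where 24.2% of all genes were called higher. The 7 chondrocyte markers that could be tested were all called higher in MLC under both treatments. The part of either list in the PSMB8 difference was not tested.

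The other genes of the pathway were counted by lists, and no list was tested as a set. In MLC with LOXL2, 9.81% of all genes were called higher and 11.8% lower. For MLC with LOXL2, 3 of 7 assembly factors and inhibitors were called higher and 0 lower: PSMG4 (0.52, adjusted p = 0.0272) and PSMG3 (0.50), chaperones of the α ring, and POMP (0.30), which helps the β ring to mature. Of 8 other proteasome-bound proteins, 2 were higher: SHFM1 (0.54, adjusted p = 0.0216), a small cap subunit, and the ubiquitin receptor ADRM1 (0.42). Of 6 ubiquitin and E1 genes, 3 were higher, led by RPS27A (0.43), which encodes ubiquitin fused to a ribosomal protein, and 1 of 4 genes of the p97 segregase was higher, UFD1L (0.48). Of 5 shuttle factors, which carry ubiquitinated proteins to the cap, 0 were higher and 2 were lower, UBQLN2 (-0.37, adjusted p = 0.0371) and UBQLN1 (-0.34).

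Genes known to regulate proteasome genes or to depend on them were counted in the same way. The shares of all genes in MLC were again 9.81% higher and 11.8% lower. Of 6 genes of the NFE2L1 axis, the transcription factor pathway that raises subunit genes when proteasome activity is short, 0 were called in either layer with LOXL2. NFE2L1 itself was at -0.15 in SLC (adjusted p = 0.257) and 0.01 in MLC (adjusted p = 0.945). Of 7 interferon regulators, 0 were higher and 2 were lower in MLC, JAK2 (-0.49, adjusted p = 0.0241) and JAK1 (-0.39). Of 9 tested genes of class I antigen presentation, 1 was lower, ERAP2 (-0.32), and of 8 genes of IκB ubiquitination 0 were called. In SLC, 0 genes of any of these lists were called by edgeR, as for all genes.

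Between layers under IL-1β, 24.2% of all genes were called higher in MLC and 22.7% lower. PSMF1, a proteasome inhibitor, was lower in MLC (-0.39) and the 20S chaperone PSMG2 higher (0.42). The cap-bound deubiquitinase UCHL5 (0.40) and the ubiquitin receptor ADRM1 (0.32) were also higher. NGLY1, which processes NFE2L1, was lower (-0.50), and the p97 gene VCP was higher (0.28). Of 8 genes of IκB ubiquitination, 1 was higher, the inhibitor NFKBIE (0.73, adjusted p = 0.00128), and 1 was lower, the ubiquitin ligase subunit BTRC (-0.49). CALR (0.75, adjusted p = 9.30e-07) and ERAP2 (0.56) were among 5 of 9 class I presentation genes that were higher and 0 that were lower. Of 7 interferon regulators 1 was higher, JAK2 (0.29), and 3 were lower, led by IRF2 (-0.27). In the libraries labelled IL-1β+LOXL2, UBA1 (0.38), a ubiquitin-activating enzyme, ERAP2 (0.92) and CALR (0.69) were higher in MLC. The 7 lists other than ubiquitin and E1 genes and class I presentation had 0 calls there. Over all genes, 9.27% were called higher and 6.83% lower in that comparison.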

How the data were processed

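RNA-seq counts of 12 libraries of goat TMJ cells were analysed, with groups and replicate numbers from the sample titles. Per the labels, mRNA was purified on poly-T beads. Per the study's methods, the authors trimmed the read pairs, mapped them to ARS1.2 and counted reads per gene with featureCounts 1.5.0-p3, and deposited raw counts in a table for each layer. The submitters' processing notes also name HISAT2, without a role. Settings for strand and multi-mapping reads are not given in the sources used here, so counts of overlapping genes are uncertain. The labels name an RNeasy kit and the paper TRIzol.

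Of 28910 rows, 28884 carry a symbol of the RefSeq annotation and 26 do not. Genes were tested with edgeR 4.0.16 (R 4.3.3; TMM, filterByExpr with minimum count 10 and minimum total 15, glmQLFit, glmQLFTest) on the libraries of the groups compared, without a replicate block, and the interaction on all 12. Standard errors were taken from the estimate and its F statistic (estimate over √F). DESeq2 1.42.0 gave normalised counts and an alternative test. The span trend was removed with an offset, a lowess curve (smoother span 0.3) through log2 CPM against the log10 of genomic span. The procedure was also run on simulated counts with the same spread for every gene. These held no span trend and no outlying library, so that run does not cover these features of the data. Each pair of replicates differed by more than sampling noise (the smallest ratio of chi-square to its degrees of freedom was 2.3).

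The proteasome genes, classes and pathway lists were chosen with earlier results of these data known. Named were PSMB5 to PSMB10, PSME1 to PSME4, the 3 largest and 3 smallest values of each comparison, at most 2 called genes with the largest absolute value of each pathway list and comparison, and the 5 genes most like the summed core. The other core, ATPase and cap genes, the neighbours of PSMB8 and PSME1, and further genes of the lists were named after their values were seen. DDI2 of the shuttle factors was not matched by name, and NLRC5 did not pass the filter. Sequences were not used here. As alternatives, edgeR was run with DESeq2's size factors, without a filter, with at least 10 counts in every library, with a replicate block, without each library, with the span trend removed, with a minimum absolute log2 fold change of 0.5 and on all 12 libraries. DESeq2's test, TMM-scaled CPM and the median over the genes of a class were also used. Some genes of the pathway lists are not reported here.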

Additional observations from a re-analysis of the deposited data

How the results depend on the processing

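In SLC, DESeq2 called 25 proteasome genes for LOXL2, against 16.0% of all genes called higher and 14.0% lower. The fit on all 12 libraries called 30, against 22.5% and 18.5%. Leaving out 1 library gave 0 to 31 (median log2 fold change 0.34 to 0.61), the 31 where 31.0% and 30.8% were called. In MLC, 19 became 2 with a minimum absolute log2 fold change of 0.5, for which shares of all genes were not counted. It became 7 without the span trend (median 0.20), against 7.79% and 6.87% of all genes. The fit on all 12 libraries gave 0, with 0% of all genes. Leaving out 1 library gave 0 to 28 (median 0.22 to 0.39), the 28 where 23.7% and 24.4% were called. The interaction had 0 calls under each alternative run, with a median of -0.30 to -0.05 when 1 library was left out. Between layers under IL-1β, 25 became 1 at 0.5 and 9 in the fit on all 12 libraries, the latter against 14.2% and 11.4% of all genes. Without 1 library it was 17 to 24 (median 0.19 to 0.23), against 20.3% to 23.7% higher and 18.2% to 22.6% lower. The median was 0.16 without the span trend. Between layers with LOXL2, 1 became 0 with at least 10 counts in every library, against 8.34% of all genes called higher and 5.68% lower. It became 2 with DESeq2 (11.3% and 9.16%) and 2 without the span trend (11.4% and 10.0%). The fit on all 12 libraries gave 6, against 14.6% and 14.3%. Leaving out 1 library gave 0 to 8 (median -0.05 to 0.13), the 8 where 16.8% and 16.1% were called. The cause of these shifts was not tested.

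Same-numbered libraries of the 2 treatments in a layer had deviations that correlated at -0.21 to 0.10. Libraries with different numbers correlated at -0.24 to 0.22. Same-numbered libraries of the 2 layers were not compared, and whether they shared a culture or batch was not tested. With a replicate block, 4 proteasome genes instead of 1 were called between layers with LOXL2. Over all genes, 14.4% were then called higher and 13.2% lower, against 9.27% and 6.83% without the block. No other count of proteasome genes moved by over 1.5 times.

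Some small values changed sign. PSME3 with LOXL2 in SLC was 5e-04 without a filter and 0.014 in the fit on all 12 libraries, and in MLC it was -0.083 without the span trend. Without the span trend, the interaction of PSME4 was -0.045 and the layer difference of PSMB9 under IL-1β was -0.017. Ranges over the fits that left out 1 library crossed 0 for PSME3 in SLC (-0.029 to 0.023), PSMD5 in MLC (-0.065 to 0.0043), and the interaction of PSMB8 (-0.39 to 0.053), PSMB10 (-0.71 to 0.042) and PSME4 (-0.088 to 0.29). They also did so between layers under IL-1β for PSMB6 (-0.043 to 0.023), PSMB9 (-0.17 to 0.30), PSMB10 (-0.087 to 0.067) and PSME4 (-0.17 to 0.0079), and with LOXL2 for PSMB5 (-0.023 to 0.20), PSMB7 (-0.21 to 0.14), PSMB10 (-0.72 to 0.019) and PSME4 (-0.17 to 0.22).

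The log2 ratio of summed CPM with LOXL2 to IL-1β was 0.12 for the 19S non-ATPase subunits in MLC. It was 0.20 when the median CPM of the class in each library replaced the sum. The median log2 fold change of these genes was 0.07. When 1 library was left out, the sums of the 20S core, immunoproteasome, ATPases, non-ATPase subunits and PSME1 with PSME2 ranged in SLC from 0.41 to 0.69, 0.40 to 0.95, 0.32 to 0.50, 0.18 to 0.25 and 0.39 to 0.72, and in MLC from 0.25 to 0.42, 0.36 to 0.57, 0.28 to 0.45, 0.08 to 0.17 and 0.28 to 0.45. When 1 library was left out, genes higher in every library with LOXL2 numbered 29 to 33 in SLC and 27 to 30 in MLC. Leaving out a library can only keep or raise this count, so the ranges do not measure stability. With all libraries it was 29 and 27, against 23.8% and 21.5% of all genes.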
